A study of Homo sapiens with 4 samples.

Results

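Gluconeogenesis is the route by which hepatocytes build glucose from lactate, pyruvate and amino acids, and the last steps release that glucose into the blood. Pyruvate carboxylase (PC) and the phosphoenolpyruvate carboxykinases (PCK1 in the cytosol, PCK2 in mitochondria) start the route. Fructose bisphosphatase (FBP1) stands in its middle, and the glucose 6-phosphate transporter (SLC37A4) and the catalytic subunit of glucose 6-phosphatase (G6PC1) end it at the endoplasmic reticulum. The coactivator PPARGC1A and the transcription factor FOXO1 raise some genes of this route in fasting liver, and insulin holds FOXO1 out of the nucleus. IGFBP1, a secreted binding protein of insulin-like growth factors, is a classic hepatic target of FOXO1 that insulin represses.

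These 9 genes were followed in HCC cells after arsenic trioxide (ATO). The members were a list of names, with no threshold on any value, and all 9 were measured, by 15 of the 54675 probe sets of the array and as 9 of 19775 genes. The 4 profiles came from 2 established human hepatocellular carcinoma lines, Huh7 and Hep3B, each treated with 3 μM ATO over 7 days or with DMSO as the negative control (NC). Thus the groups were ATO-treated Huh7, NC Huh7, ATO-treated Hep3B and NC Hep3B, with a single profile in each. The lines were kept in high-glucose DMEM or in MEM with serum, and the sources used here do not say which medium each line had. The labels name no genetic change in any group. RNA was read on Affymetrix Human Genome U133 Plus 2.0 arrays, whose probe sets are groups of short probes for a transcript, and the deposited values are normalized intensities on a linear scale.

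Each gene was read from its brightest probe set, and the ratio of intensity, ATO over NC, was taken within a line. A ratio counted as higher above 1.5 and as lower below 0.67. With 1 profile per condition and line, a ratio within a line has no error of its own and no test. Across lines, limma used the 2 lines as replicates, on the log2 of the intensity plus 16, which left 1 residual degree of freedom. No gene of the 19775 had an adjusted p under 0.05 (the smallest was 0.506), while 9.54% had an unadjusted p under 0.05. A value under the median of all probe sets, 15.8 to 16.3 over the profiles, is called dim, and ratios of dim values are uncertain in size.

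The route is one of hepatocytes, so the liver markers were read beside the 9 genes. All 12 measured hepatocyte markers were above the median in every profile. Their summed intensity was 28858 in ATO-treated and 32272 in NC Huh7, and 61804 in ATO-treated and 79267 in NC Hep3B. In Huh7 the median of their log2 ratios was -0.15, and in Hep3B -0.40. The markers were uneven between lines. AFP, the fetal plasma protein, was 62.1 in ATO-treated and 91.8 in NC Huh7, against 1646 and 3567 in Hep3B, and albumin (ALB) was 358 and 155 in Huh7, against 10730 and 12803 in Hep3B. TTR, a thyroid hormone carrier of plasma, was 32.8 in ATO-treated and 48.2 in NC Huh7, against 1983 and 1704 in Hep3B. Not all markers were lower in Huh7. In NC cells FGB was 1012.5 in Huh7 against 209.5 in Hep3B, and SERPINA1 12710 against 10091. The other markers were lower in NC Huh7, APOB the least so, at 4109 against 5475. Huh7 is known as a line that makes AFP and albumin, so the low values of these 2 sit poorly with the label. The line labels were kept as given, and every result within a line rests on them. Of the markers of kidney proximal tubule, the other tissue that makes glucose, LRP2 and CUBN were dim in all profiles. Dim throughout were also COL1A2, COL3A1, DCN and LUM of fibroblasts, VWF, CDH5, KDR and STAB2 of endothelium, and PTPRC and MS4A1 of blood. The summed intensity of these other lists, cholangiocytes aside, was at most 156 in any profile. Cholangiocyte markers summed to 448 in ATO-treated and 305 in NC Huh7, and to 1657 in ATO-treated and 1582 in NC Hep3B, mostly from KRT19 in Hep3B. The median of their log2 ratios was 0.18 in Huh7, that of KRT19, dim in both profiles there. In Hep3B it was 0.73, that of SPP1, from 23.0 with ATO over a dim 13.9 in NC. The brighter KRT19 and SOX9 had ratios of 1.06 and 0.854 in Hep3B. Of the list KRT7 alone, a bile duct keratin, was past 1.5 in both lines, at 4.42 in Huh7 and 2.55 in Hep3B. The part of these markers in the results was not tested, and in bulk RNA fewer expressing cells and less RNA per cell cannot be told apart. The spiked poly-A controls, 24 probe sets, were slightly lower with ATO, with medians of -0.28 (log2 ratio, Huh7) and -0.23 (Hep3B), and the 3' minus 5' difference of GAPDH and ACTB changed by at most 0.07. The part of these controls in the results was not tested either.

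The 9 genes had no common direction. In Huh7, G6PC1 and PCK1 were lower with ATO, whereas in Hep3B PCK2 and FBP1 were higher and IGFBP1 was lower. In Huh7, 0 of the 9 were above 1.5, against 3.21% of all genes, and 2 were below 0.67, against 3.25% of all genes. In Hep3B 2 were above 1.5, against 5.04%, and 1 was below 0.67, against 4.02%. No member was above 1.5 in both lines (0.804% of all genes) or below 0.67 in both lines (0.587%). At any size, PCK2, FBP1 and FOXO1 were higher in both lines (32% of all genes) and SLC37A4, PC, PPARGC1A and IGFBP1 lower in both (24.7%). All 9 were above the median in at least 1 profile, and among the 13535 genes of that kind the shares above 1.5 and below 0.67 were 4.06% and 4.23% in Huh7, and 6.74% and 5.5% in Hep3B. The median log2 ratio of the 9 genes was -0.39 in Huh7, where that of all genes was 0.01. In Hep3B it was 0.07, where that of all genes was 0.04. By limma 2 members, PC and IGFBP1, had an unadjusted p under 0.05, both lower (4.3% of all genes), and none of the higher members did (5.24% of all genes). Their adjusted p-values lay between 0.506 and 0.784, so 0 of 9 passed the test, as did 0% of all genes.

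**Figure D1:**
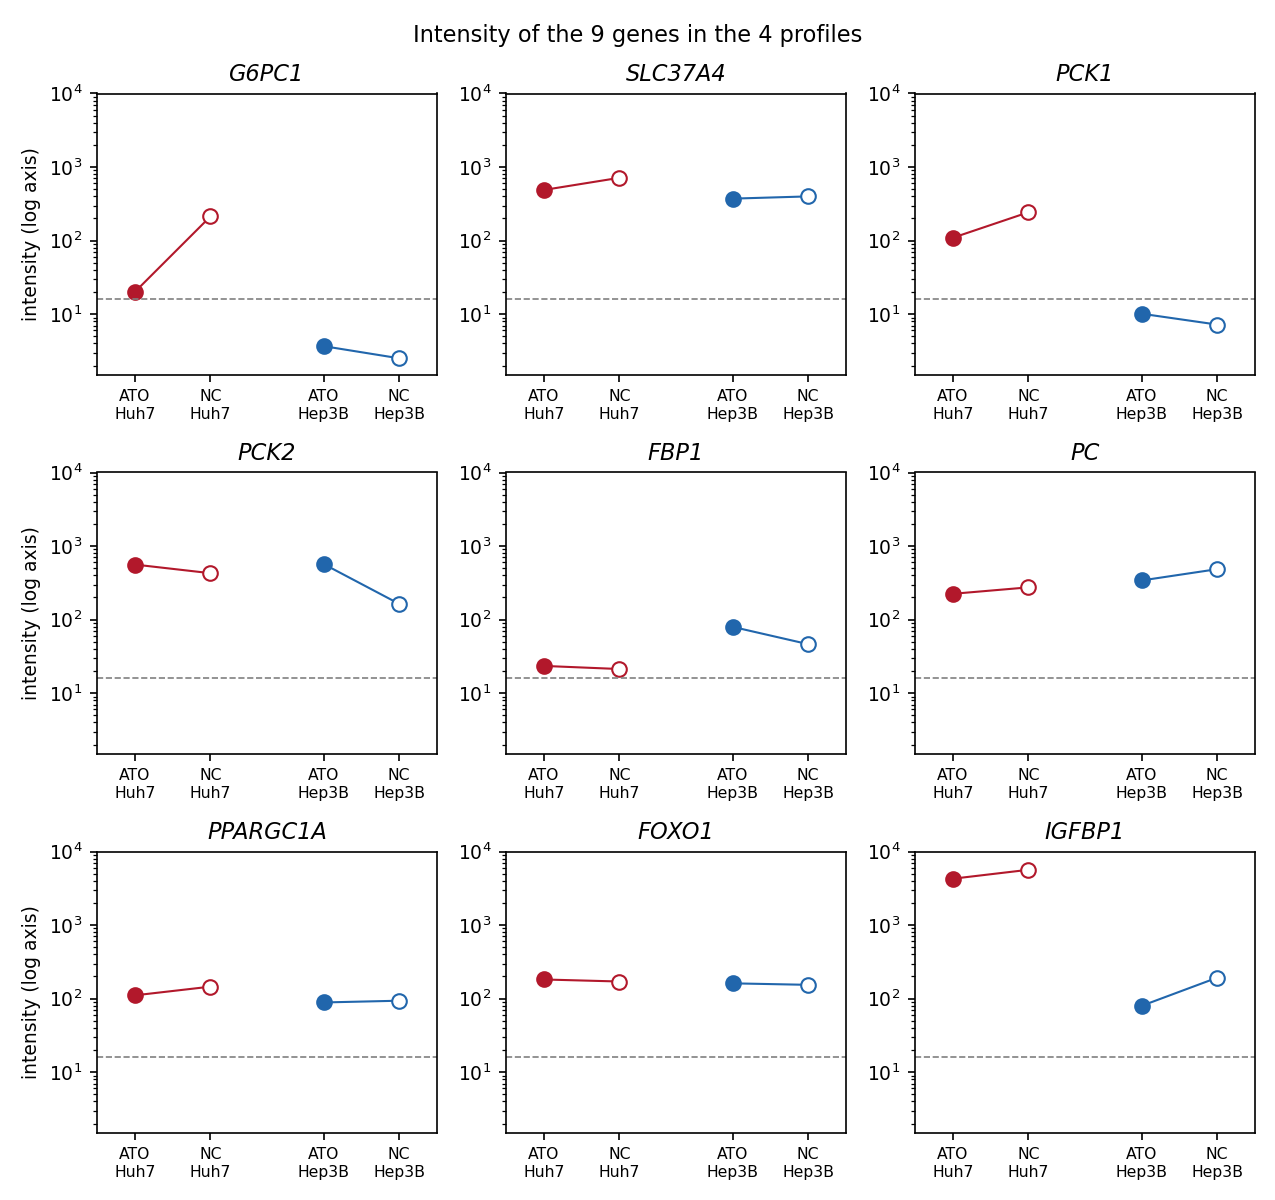
Intensity (log axis) of the 9 genes in the 4 profiles, each from the brightest probe set, with ATO as filled and NC as open points, Huh7 in red and Hep3B in blue. The dashed line is the median of all values, 15.99. G6PC1 is 20.1 with ATO in Huh7 against 212.8 in NC, and both its Hep3B values are below the dashed line.

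The steps that release glucose showed the lowest ratio. G6PC1 had an intensity of 20.1 in ATO-treated Huh7, against 212.8 in NC Huh7, and of 3.67 in ATO-treated Hep3B, against 2.51 in NC Hep3B. It stood clearly above the median in NC Huh7 alone, just above it in ATO-treated Huh7, and was dim in both Hep3B profiles. The Huh7 ratio was 0.0944, the lowest of all 19775 genes in that line and the only 1 at least 10 times lower, and the Hep3B ratio of 1.46 is one of dim values. The second probe set of G6PC1 gave 15.2 with ATO and 54.4 in NC Huh7, at 0.280 of it, and was dim in Hep3B at 6.07 and 5.80. Both probe sets were thus lower in Huh7, by different amounts. Over the 2 lines the mean log2 ratio was -1.43 ± 2.79 (SD, n = 2), a spread wider than the mean, and limma gave p-values of 0.222 unadjusted and 0.696 adjusted.

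The 250 bases before the RefSeq start of G6PC1 (GRCh38.p14, chr17:42900549-42900798, plus strand) are shown because this gene had the lowest ratio in Huh7, and those of PCK2 (chr14:24094061-24094310, plus strand) because it had the highest ratio of the members in Hep3B. Capitals mark TATAAA, the letters of a TATA box.
G6PC1: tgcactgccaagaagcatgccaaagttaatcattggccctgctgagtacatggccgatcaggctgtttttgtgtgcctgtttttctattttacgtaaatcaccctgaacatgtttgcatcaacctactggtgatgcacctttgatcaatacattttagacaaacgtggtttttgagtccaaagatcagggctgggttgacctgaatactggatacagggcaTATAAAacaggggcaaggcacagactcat
PCK2: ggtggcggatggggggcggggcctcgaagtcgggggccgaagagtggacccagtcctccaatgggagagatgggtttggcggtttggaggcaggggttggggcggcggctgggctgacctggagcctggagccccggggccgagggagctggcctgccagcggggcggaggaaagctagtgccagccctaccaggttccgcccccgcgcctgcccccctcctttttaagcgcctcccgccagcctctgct
The G6PC1 stretch holds 44% G and C, with TATAAA at 29 bases before the start, and the PCK2 stretch holds 71.6% G and C, without these letters. Searched on both strands, TATAAA occurred in 10.7% of the 35116 promoters of this length. It was found at 2 of the 11 listed starts of the 7 members with a promoter entry, those of G6PC1 and, at 30 bases before the second start, of SLC37A4. PCK1 and IGFBP1 had no entry. The other letters searched, on both strands, were the cAMP response element TGACGTCA (1.65% of all promoters), its shorter core TGACG (21.2%, contained in the full element), the insulin response core CAAAACA (4.3%) and the FOXO element TGTTTAC (2.98%). The ATF4 composite element TGATGNAAT (0.888%), the antioxidant element TGACNNNGC (10.9%) and the HNF4 core CAAAGTCCA (0.325%) were also searched. None of these other letters lay in the stretches of G6PC1 or PCK2, but variants of the elements were not searched. TGACG occurred at 2 of the 11 member starts, 3 times before the first start of PC and at 119 bases before the first start of PPARGC1A, where TGACNNNGC also occurred. A match of letters is a description of the sequence, and no binding was measured.

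SLC37A4, which carries glucose 6-phosphate to G6PC1, had an intensity of 488.2 in ATO-treated and 714.1 in NC Huh7, and of 372.1 in ATO-treated and 399 in NC Hep3B. All 4 values were far above the median, and those of the treated cells were the lower in each line. The ratios were 0.684 in Huh7, just above the threshold of 0.67, and 0.933 in Hep3B. Its other probe set had ratios of 0.800 and 0.976, the same direction in both lines. The mean log2 ratio was -0.32 ± 0.32 (SD, n = 2), with an adjusted p of 0.606 by limma.

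The phosphoenolpyruvate carboxykinases of the cytosol and of mitochondria, which make the same product from oxaloacetate, had different patterns. PCK1 had an intensity of 109.3 in ATO-treated and 242.6 in NC Huh7, and of 10.1 in ATO-treated and 7.22 in NC Hep3B, where it was dim. The ratio in Huh7 was 0.451, in place 52 from the lowest of all genes, and the ratio of dim values in Hep3B was 1.40. PCK2 had an intensity of 560.1 in ATO-treated and 427.8 in NC Huh7, and of 569.5 in ATO-treated and 163.9 in NC Hep3B. NC Hep3B stood well below the other profiles of PCK2, and the ATO-treated profiles of both lines had nearly the same level. Its ratios were 1.31 in Huh7 and 3.47 in Hep3B, where it took place 46 from the highest of all genes. The mean log2 ratio was 1.09 ± 1.0 for PCK2 and -0.33 ± 1.16 for PCK1 (SD, n = 2 each). By limma the adjusted p was 0.562 for PCK2 and 0.781 for PCK1. Each of these genes had a single probe set, and that of PCK1 ends in _s_at, a suffix for probes that can bind several transcripts.

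PC, which turns pyruvate into oxaloacetate, was the member whose lines differed least among those lower in both. It had an intensity of 224.3 in ATO-treated and 274.4 in NC Huh7, and of 340.5 in ATO-treated and 484.7 in NC Hep3B. The treated value was the lower in each line, with ratios of 0.817 and 0.703, neither past the threshold. The mean log2 ratio was -0.40 ± 0.15 (SD, n = 2), and limma gave p-values of 0.0270 unadjusted and 0.506 adjusted. The single probe set of PC also ends in _s_at. FBP1, which removes a phosphate from fructose bisphosphate, had an intensity of 23.5 in ATO-treated and 21.3 in NC Huh7, little above the median. In Hep3B it had 79.7 with ATO and 46.4 in NC. Both lines were higher with ATO, at ratios of 1.10 and 1.72, and the mean log2 ratio was 0.46 ± 0.45 (SD, n = 2), with an adjusted p of 0.620 by limma.

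**Figure D2:**
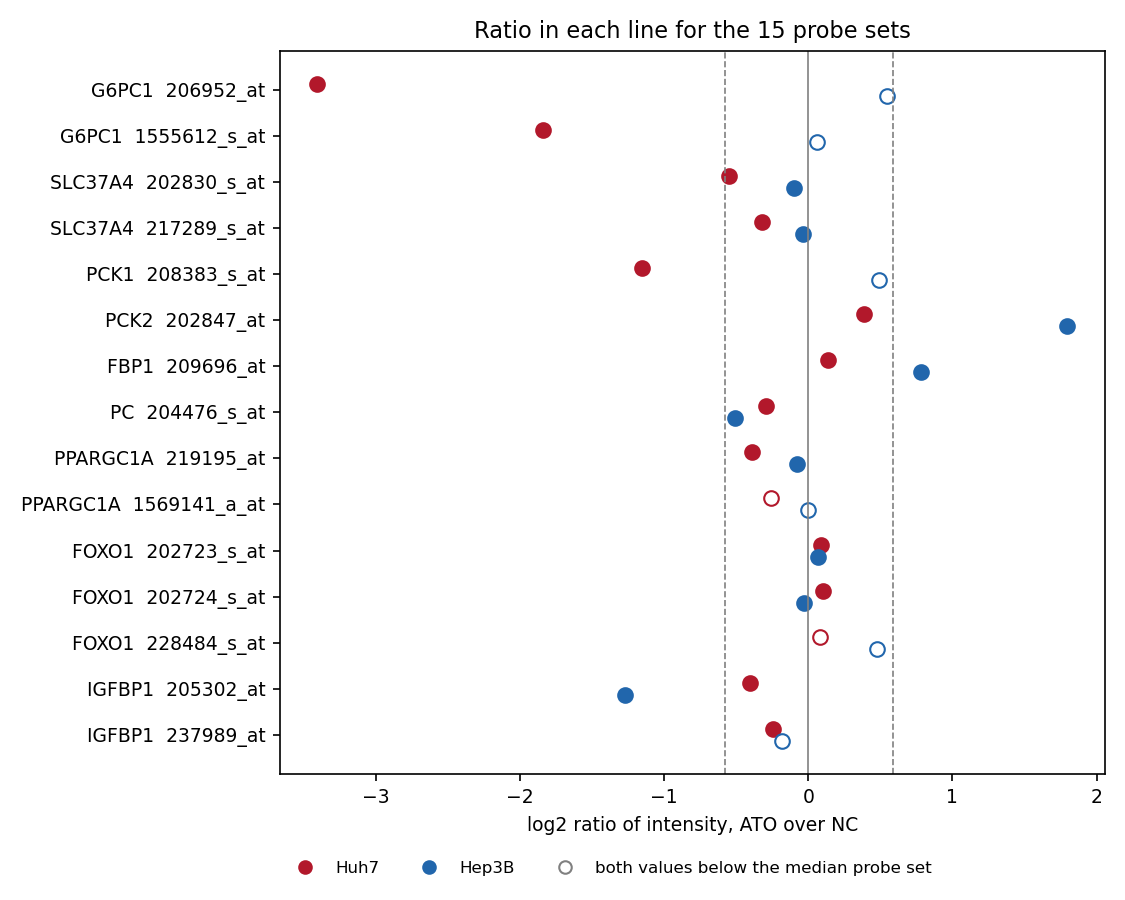
Log2 ratio of ATO over NC in Huh7 (red) and Hep3B (blue) for each of the 15 probe sets, with open points where both values were below the median of all values. Dashed lines mark ratios of 1.5 and 0.67. Both G6PC1 probe sets lie left of the lower line in Huh7, and in Hep3B PCK2, at 3.47, lies farthest right.

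The regulators of the route stayed within the thresholds. FOXO1 had an intensity of 182 in ATO-treated and 170.8 in NC Huh7, and of 161.3 in ATO-treated and 153.9 in NC Hep3B. The 4 values are close to each other, with ratios of 1.07 and 1.05 and a mean log2 ratio of 0.08 ± 0.02 (SD, n = 2). Of its other probe sets, the bright one had ratios of 1.08 and 0.981, and the dim one 1.06 and 1.39. PPARGC1A had an intensity of 110.8 in ATO-treated and 145.4 in NC Huh7, and of 88.7 in ATO-treated and 93.6 in NC Hep3B. Its ratios were 0.762 and 0.947, and its other probe set was dim in every profile. By limma the adjusted p was 0.784 for FOXO1 and 0.630 for PPARGC1A.

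IGFBP1 was lower with ATO in both lines and past the threshold in Hep3B. It had an intensity of 4267 in ATO-treated and 5640 in NC Huh7, and of 79.7 in ATO-treated and 192.1 in NC Hep3B. Huh7 stood far above Hep3B with and without ATO, and the treated value was the lower in each line. In Huh7 the ratio was 0.757, and in Hep3B it was 0.415, in place 92 from the lowest of all genes. The mean log2 ratio was -0.84 ± 0.61 (SD, n = 2), with p-values by limma of 0.0468 unadjusted and 0.517 adjusted. The second probe set was lower by less, with ratios of 0.846 and 0.880, and was dim in Hep3B at 6.18 and 7.03.

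Several members differed widely between the lines in either condition. Among treated cells, Huh7 over Hep3B was 53.6 for IGFBP1, 10.8 for PCK1 and 5.47 for G6PC1. Among NC cells the same ratio was 29.4 for IGFBP1, 33.6 for PCK1 and 84.7 for G6PC1. Those of PCK1 and G6PC1 were over dim Hep3B values in both conditions. The second probe sets of IGFBP1 and G6PC1 gave smaller ratios, also over dim Hep3B values. For IGFBP1 these were 10.7 with ATO and 11.1 in NC. For G6PC1 they were 2.51 with ATO, where both values were dim, and 9.38 in NC. Going the other way, FBP1 in Huh7 was 0.294 of Hep3B with ATO and 0.459 in NC, and PC was 0.659 and 0.566. PCK2, at 0.984 with ATO and 2.61 in NC, was level between the lines only in treated cells. FOXO1, at 1.13 and 1.11, SLC37A4, at 1.31 and 1.79, and PPARGC1A, at 1.25 and 1.55, differed less. These differences have no replicate and no test.

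**Figure D3:**
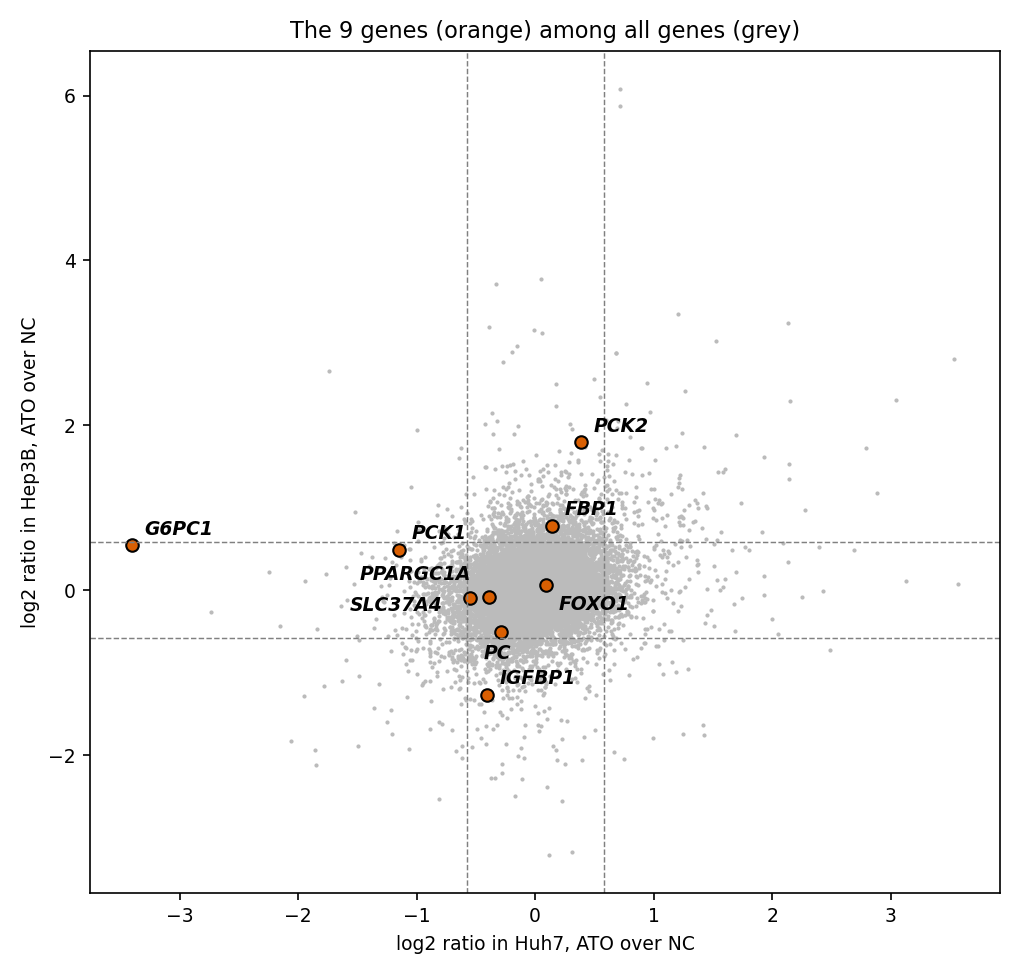
Log2 ratio of ATO over NC for Huh7 along x and for Hep3B along y, in all 19775 genes (grey) and the 9 members (orange), with dashed lines at ratios of 1.5 and 0.67. G6PC1 is the leftmost of all genes, at a log2 ratio of -3.40 in Huh7, and PCK2 lies at 1.80 in Hep3B.

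PCK2 is known as a target of ATF4, the transcription factor of the amino acid response, and most of the other genes of that list had ratios above 1.5 in Hep3B. All 18 were measured and above the median in at least 1 profile. In Hep3B 15 of 18 were above 1.5, against 5.04% of all genes. In Huh7 5 of 18 were (3.21% of all genes), all 5 of them in both lines (0.804%). At any size 16 of 18 were higher in both lines, against 32% of all genes, and 1 was lower in both. Their median on the log2 scale was 0.36 in Huh7 (all genes, 0.01) and 1.23 in Hep3B (all genes, 0.04). By limma 9 were higher at an unadjusted p under 0.05 (5.24% of all genes), none was lower, and none passed after adjustment over all genes. SLC7A11, the cystine importer, was at 1.96 times NC in Huh7 and at 4.48 times in Hep3B, and STC2, a secreted glycoprotein, 1.61 and 3.92. NUPR1, a stress-induced nuclear protein, had 2.33 and 2.46, TRIB3, a pseudokinase that restrains AKT, 1.52 and 2.74, and the transcription factor ATF3 1.54 and 2.34. ATF4 itself, which is controlled largely at translation and was named here after its values were seen, had ratios of 1.01 and 1.20. The list was also chosen with earlier results of these data known, so its counts are a description and not a test. PCK2 lies within the range of the list in both lines.

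G6PC1, PCK1 and IGFBP1 are known targets of FOXO1, and of the other FOXO target genes more were below 0.67 than above 1.5. Of 18 genes, 17 were measured. In Huh7 6 were below 0.67 (3.25% of all genes) and 2 above 1.5 (3.21%), and in Hep3B 7 were below (4.02%) and none was above (5.04%). Among those below, TXNIP in Huh7 (0.645) and PDK4 in Hep3B (0.668) had ratios of dim values. The 2 above 1.5 in Huh7 were TRIB1, at 2.21, and GADD45A, at 1.595. In Hep3B these had ratios of 0.708 and 1.06. In both lines 4 were below 0.67 (0.587% of all genes), and 10 were lower in both at any size, against 24.7% of all genes. On the log2 scale their median was -0.28 in Huh7 and -0.48 in Hep3B, and by limma 6 were lower at an unadjusted p under 0.05 (4.3% of all genes), with none passing after adjustment. The genes below 0.67 in both lines were CITED2, a transcriptional coregulator, at 0.651 in Huh7 and 0.243 in Hep3B, and the stress protein SESN1, at 0.636 and 0.565. CDKN1B, the cell cycle inhibitor p27, was at 0.636 and 0.576, and CCNG2, a cyclin of resting cells, at 0.655 and 0.564. SESN3, a sestrin, was at 0.822 in Huh7, a ratio of dim values, and at 0.214 in Hep3B. Several of these genes also answer to other factors, and FOXO1 activity was not measured. This list too was chosen with earlier results of these data known.

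**Figure D4:**
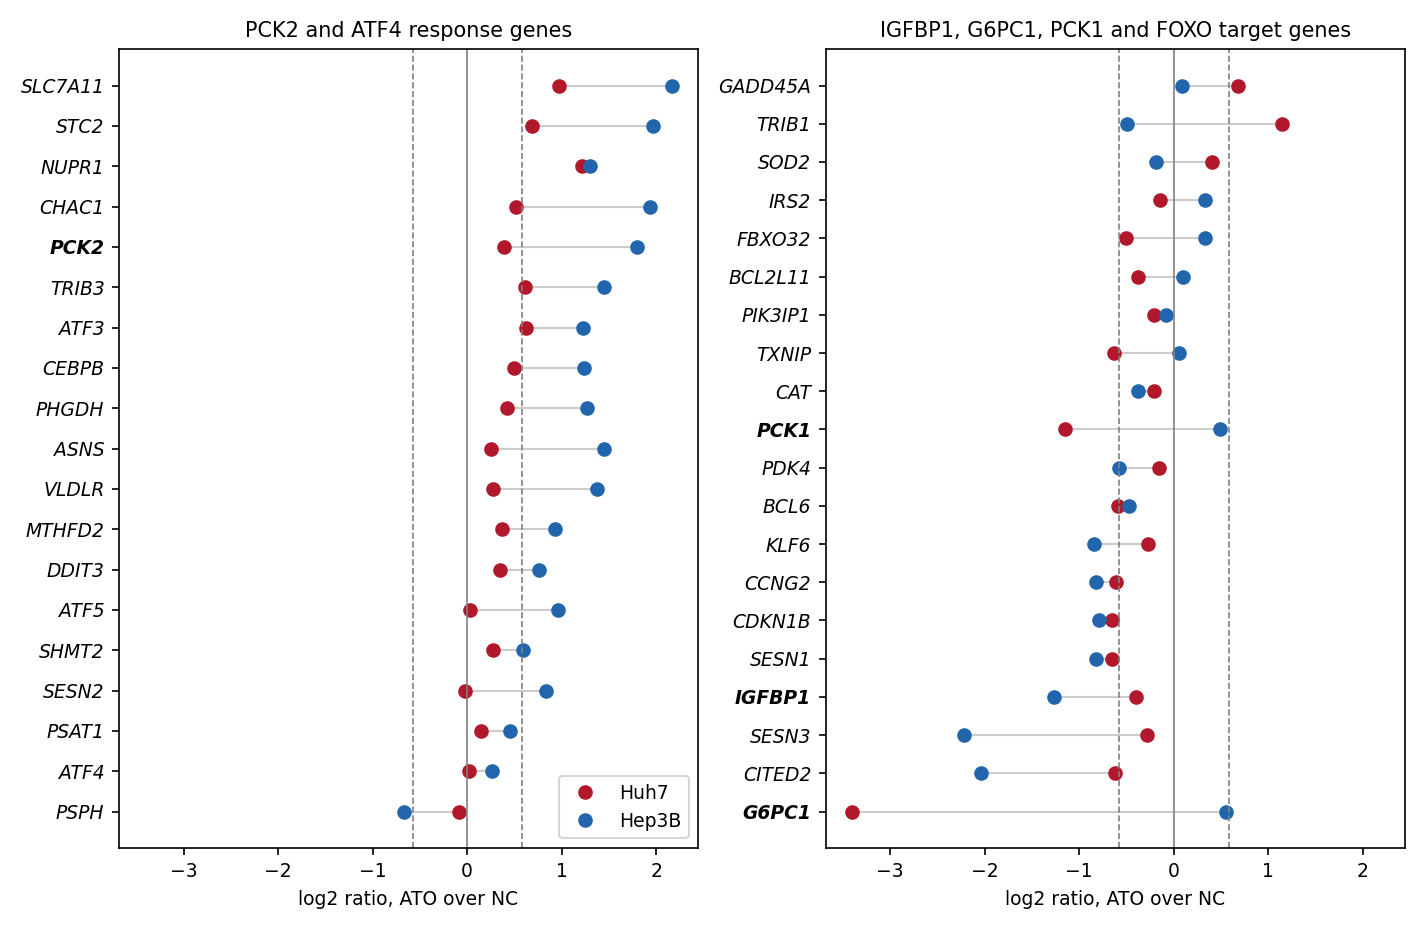
Log2 ratio of ATO over NC in Huh7 (red) and Hep3B (blue) for PCK2 with the ATF4 response genes (left) and for IGFBP1, G6PC1 and PCK1 with FOXO target genes (right), members in bold, ordered by the mean of both lines. Dashed lines mark ratios of 1.5 and 0.67. On the left, 15 of the 18 list genes lie above 1.5 in Hep3B, and on the right 4 of the 17 lie below 0.67 in both lines.

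In the lists of hormone and insulin signaling upstream of the members, only TRIB3 was past a threshold in both lines. Of 39 measured genes of hormone and transcription control, TRIB3 alone was above 1.5 in both lines (0.804% of all genes) and none was below 0.67 in both (0.587%). The median of this list on the log2 scale was -0.07 in Huh7 and 0.05 in Hep3B. CEBPB, which binds the promoters of PCK1 and other liver genes, had ratios of 1.41 and 2.36. By limma 4 of the 39 were higher (5.24% of all genes) and 2 lower (4.3%) at an unadjusted p under 0.05, and none passed after adjustment. Of 12 measured genes between the insulin receptor and FOXO1, none was past a threshold in both lines, and at shares that low a short list can hold none. The adaptor GRB10, an inhibitor of the insulin receptor, had ratios of 1.49 and 1.78, and PIK3R1, a regulatory subunit of PI3K, 0.752 and 0.275. In that list 1 gene was higher at an unadjusted p under 0.05 (5.24% of all genes) and none was lower (4.3%).

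Enzymes that share or oppose the route had ratios on both sides of 1. Of 14 measured enzymes that glycolysis and gluconeogenesis have in common, none was past a threshold in both lines (0.804% of all genes above, 0.587% below). At any size 7 were lower in both lines (24.7% of all genes), and the median of the list was -0.10 on the log2 scale in each line. ALDOC, an aldolase, had ratios of 0.526 and 0.745, and PGAM2, a phosphoglycerate mutase, 1.84, over a dim NC value, and 1.20. Of 19 measured one-way glycolysis enzymes and their regulators, HKDC1 was above 1.5 in both lines (0.804% of all genes) and PFKFB4 below 0.67 in both (0.587%). HKDC1, a hexokinase, had an intensity of 358.8 in ATO-treated and 220.6 in NC Huh7, and of 782.9 in ATO-treated and 189.2 in NC Hep3B. PFKFB4, which sets the level of a fructose bisphosphate that activates glycolysis and blocks FBP1, had 259 with ATO and 545.6 in NC Huh7, and 131.8 with ATO and 259.1 in NC Hep3B. Their adjusted p by limma was at least 0.506, as for all genes.

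The entry of substrates and the exit of glucose held no gene past a threshold in both lines (0.804% of all genes above, 0.587% below). Of 19 measured genes of substrate entry and mitochondrial shuttles, LDHB, a lactate dehydrogenase subunit read from an _x_at probe set whose probes may also catch related transcripts, was at 1.48 and 1.94 times NC, with only ATO-treated Hep3B clearly above the median. SLC25A12, an aspartate and glutamate carrier, had 1.33 in Huh7 and 1.90 in Hep3B, there over a dim NC value. Of 9 measured glucose transporters, SLC2A3 was at 1.04 times NC in Huh7 and at 13.7 times in Hep3B, there from 122.4 with ATO over a dim 8.96 in NC, and SLC2A9 had 1.39 and 1.35. SLC2A2, the transporter of the hepatocyte membrane, was chosen after its values were seen. It had 280.6 with ATO and 585.6 in NC Huh7, and 63.3 with ATO and 54.1 in NC Hep3B, ratios of 0.479 and 1.17. Like G6PC1, PCK1 and SLC37A4, it was lower in treated Huh7. In treated Hep3B it was slightly higher, but the values of G6PC1 and PCK1 were dim there and too uncertain to compare.

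The genes whose 4 values were most like those of the members with the widest range, IGFBP1 and G6PC1, were found by the Euclidean distance of mean-centred log2(intensity + 16). For IGFBP1 they were TGFBR3 at a distance of 0.12, MAGEA6 at 0.49 and CTAG2 at 0.76, genes with high values in Huh7 and low ones in Hep3B. For G6PC1 they were CABP7 at 0.55, CA11 at 0.88 and EPHA7 at 1.02. CABP7 had 75.8 with ATO and 359.1 in NC Huh7, and 16.5 with ATO and 14.2 in NC Hep3B. Likeness over 4 profiles is a description, and among 19775 genes some lie close to any pattern.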

How the data were processed

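Intensities were deposited for 4 profiles, 1 value for each probe set. By their methods the authors used RMA, which fits 1 value per probe set, took logs and applied quartile normalization with simpleaffy. The deposited intensities run from 2.24 to 14163.5 and are therefore linear. The return to that scale, and whether a profile is 1 array or a mean, are not given in the sources used here. No detection call was used, and the number of profiles limits the precision.

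Probe sets were named from the platform annotation, where 41091 had 1 symbol (62 control probe sets left out), 1801 several and 11777 were not listed. No symbol needed an update. The brightest probe set stood for a gene. Ratios used plain intensities. limma 3.58.1 (R 4.3.3, data.table version 1.17.8) was fitted on all 19775 genes with cell line and treatment, on log2(intensity + 16), with Benjamini-Hochberg adjustment at 0.05 and a prior of 1.81 degrees of freedom. The steps were tested on simulated data. Promoters came from RefSeq (GRCh38.p14). Python 3.11.15, pandas 2.3.3 and matplotlib 3.10.9 were used.

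The members, lists and thresholds were chosen with earlier results of these data known. Of each list the text names genes past 1.5 or 0.67 in both lines and the 2 largest mean log2 ratios among genes not dim in every profile, and other genes only as context. TATAAA was searched after the sequences were seen. Alternatives covered the probe set for a gene, normalization, dim genes, the offset, the prior, the cell line term, stricter thresholds and each line alone. Replicates in the fit are lines. Its p-values set the mean change against the spread between 2 lines, drawn toward a variance shared by all genes. That shared part weighs more here, with 1.81 prior degrees of freedom against 1 residual.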

Additional observations from a re-analysis of the deposited data

Results flagged for a closer look

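For 2 members the ratios of the 2 lines lay on opposite sides of 1. The log2 ratio in Hep3B minus that in Huh7 was 3.95 for G6PC1 and 1.64 for PCK1. Both were lower in treated Huh7 and slightly higher in treated Hep3B, where every value of both genes was dim. The difference was not tested, since each line has 1 profile per condition.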

How the results depend on the processing

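No member was above 1.5 or below 0.67 in both lines under any other probe set rule, normalization or offset. The stricter thresholds of 2 and 0.5 and the filter for dim genes could not change this. Stricter thresholds add no member, and the filter kept all 9 with the same ratios. With Hep3B alone 2 members were above and 1 was below, and with Huh7 alone 2 were below. The number with an unadjusted p under 0.05 in limma was 2 of 9. With probe sets ending in _x_at, _s_at or _a_at left out the number was 1. Only 5 members were then measured, and PC was not among them. The number was 1 with quantile normalization, 1 with an offset of 64, 3 with dim genes left out and 3 with no offset. An intensity trend in the prior gave 4, and a model without the cell line gave 0. The mean log2 ratio changed sign in Hep3B alone for G6PC1 (0.55) and PCK1 (0.49), from dim values. No member had an adjusted p under 0.05 in any alternative, with a range of 0.312 to 1. Over all genes limma called 0 in the reported fit, but 7 higher and 2 lower with the intensity trend, 5 and 3 without the offset, and 3 and 2 with dim genes left out. Of 100 alternative log2 ratios within a line, 97 lay within 1 SD (between the lines) of the reported value and the 3 others were of FOXO1. That SD is a loose measure for members whose lines differ, at 2.79 for G6PC1 and 1.16 for PCK1. The log2 ratio of G6PC1 in Huh7, -3.40, was -2.62 with the mean of all probe sets and -2.66 with the intensity plus 16. In Hep3B its 0.55 was 0.31 and 0.09. With dim genes left out every ratio stayed the same by construction, since all 9 members were kept. The mean of all probe sets could not change the ratios of PCK1, PCK2, FBP1 and PC, which have a single probe set. Leaving out probe sets by suffix changed no ratio of the 5 members still measured, whose brightest probe set was kept. The 97 of 100 thus include values that could not move. The reported fit pairs ATO with NC within each line, and the labels give no replicate numbers for another pairing. A missing call says little here, since 1 residual degree of freedom is left.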

Other observations

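Glycogen breakdown feeds the same glucose 6-phosphate to G6PC1. Among 18 measured genes of glycogen breakdown and synthesis, none was past a threshold in both lines. Of all genes 0.804% were above 1.5 and 0.587% below 0.67 in both lines, so short lists can hold none. PHKA1, a regulatory subunit of phosphorylase kinase, was at 1.28 times NC in Huh7 and at 2.98 times in Hep3B, and GBE1, the branching enzyme, 0.755 and 0.612. Of the 8 measured relatives of IGFBP1 and insulin-like growth factors, none was past a threshold in both lines either. IGFBP3, the main carrier of these factors in blood, had an intensity of 5326 in ATO-treated and 4561 in NC Huh7, and of 153.1 in ATO-treated and 903.3 in NC Hep3B, with ratios of 1.17 and 0.170. IGFBP7 had ratios of 1.22 and 2.93. Like IGFBP1, IGFBP3 was higher in Huh7 than in Hep3B in both conditions.

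Of 12 partners and mitochondrial targets of PPARGC1A, all above the median in at least 1 profile, 6 were lower (24.7% of all genes) and 1 was higher (32%) in both lines at any size, and the median log2 ratio was -0.17 in Huh7 and -0.09 in Hep3B. ACADM, an enzyme of fatty acid oxidation, had ratios of 0.639 and 0.716, and GABPA, a transcription factor of respiratory genes, 0.841 and 0.482. By limma 2 of the 12 were lower at an unadjusted p under 0.05 (4.3% of all genes) and none passed after adjustment over all genes.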
